A study of Mus musculus with 2 samples.

Results

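The genes described here write, copy and remove cytosine methylation in mouse DNA: the DNA methyltransferase genes Dnmt1, Dnmt3a, Dnmt3b and Dnmt3l, the maintenance partner Uhrf1 and its relative Uhrf2, the dioxygenase genes Tet1, Tet2 and Tet3, and the DNA glycosylase gene Tdg. They were taken as every probe set that the platform annotation assigns to exactly 1 of these symbols, which gave 18 of the 45118 probe sets of the array. The 18 probe sets name 9 of the 10 genes, and Tet1 was named by 0 probe sets. One of the 2 Dnmt3b probe sets had no usable knockdown value, so 17 probe sets were compared.

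The study measured RNA in mouse embryonic stem (ES) cells with and without depletion of H2A.B, a short variant of histone H2A, to find transcripts whose level differs once H2A.B is depleted. Both groups were ES cells grown without feeders on gelatin, in medium with 15% fetal bovine serum and ESGRO, a leukaemia inhibitory factor preparation. Both carried a neomycin-selectable MSCV retrovirus that expresses a hairpin RNA from a U6 promoter, and both were selected with G418 for 2 to 4 weeks. The control group carried a control sequence and the knockdown group a hairpin against H2A.B. The labels number the knockdown sample 1 and name no ES line, clone or sex of the cells. Each group had 1 array, so the values below describe 2 arrays, no difference has a replicate error, and no test of a difference between the groups was possible.

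DNA methylation in mammals sits mainly on cytosines that precede guanines (CpG). Dnmt3a and Dnmt3b place new marks and Dnmt3l, which has no catalytic activity of its own, stimulates them. Dnmt1 copies marks to the new strand after replication, and Uhrf1 recruits it by reading hemimethylated CpG and modified histone H3. Tet enzymes oxidise 5-methylcytosine, and Tdg excises the most oxidised forms so that base excision repair can restore cytosine. ES cells are known for high Dnmt3b, Dnmt3l, Tet1 and Tet2 expression, with Tet3 low until differentiation.

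Most of these genes had at least 1 start site rich in CpG. RefSeq promoter windows of 300 bases on GRCm38.p6, from 250 bases before the start to 50 after it, were found for 10 of 10 genes, at 17 start sites in all. At least 1 start of 8 genes had 20 or more CpG, the upper quartile over all 32851 windows. The exceptions were Tet1, with 17 CpG, and Dnmt3l, with 6, 4 and 3 CpG at its 3 starts. Genes were counted by their richest start, and the share of all genes reaching 20 CpG in that way was not computed. Among the 8 genes, starts below 20 CpG had 12 and 2 (Dnmt1), 12 (Uhrf1) and 18 (Dnmt3a). Tet2 had the most, with 57 CpG, a number reached by 0.152% of all windows. Of 7 motifs searched on both strands, TTTCGCGC, a form of the site bound by the cell-cycle factors E2F, was in the windows of Dnmt1 and Uhrf1 alone among the 10 genes, against 0.323% of all windows. The related TTTGGCGC was in Dnmt1 alone (0.514% of windows), and TTTCCCGC (1.07%) and TTTGCCGC (0.441%) were in none of the 10. CCAAT was found for Dnmt1, Uhrf1, Tet3 and Tdg (37.4% of windows), GGGCGG for every gene but Tdg (35.7%), and TATAAA for none (13.6%). A match describes letters in the window and no binding was measured.

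The site shared by the maintenance pair is printed with 11 bases on each side, on the plus strand of GRCm38.p6, with the motif in capitals. The Dnmt1 stretch is chr9:20952824-20952853 and the Uhrf1 stretch is chr17:56304117-56304146.
Dnmt1: gaccccggcttTTTCGCGCgcgcggaaacc
Uhrf1: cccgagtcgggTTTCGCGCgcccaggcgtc
The 212 bases before the Dnmt3b gene record are shown because Dnmt3b had the widest difference among the methylation enzyme genes past the brightness limit explained below. They lie on the plus strand at chr2:153649199-153649410, and their 16 CpG are in capitals.
Dnmt3b: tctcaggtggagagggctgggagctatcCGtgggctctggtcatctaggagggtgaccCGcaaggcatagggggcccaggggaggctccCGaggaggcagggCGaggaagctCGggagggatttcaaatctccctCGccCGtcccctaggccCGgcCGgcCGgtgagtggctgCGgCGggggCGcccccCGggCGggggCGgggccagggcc

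The deposited table needs 3 remarks before the values. In the knockdown column, 616 values climb by exactly 1 from each to the next, and these, with 2 others above 20, are not log2 intensities and were left out. In the control column, 1455 values between rows 18185 and 33642 repeat a value up to 20 rows above, and these were left out too; 0 of them belong to the genes described here. That stretch is the middle section of the table, with a first section before it and a last one after it. Among probe sets that name 1 gene and pass the brightness limit explained below, the median absolute difference between the arrays was 0.05 on the log2 scale in the first section. It was 0.15 in the middle section and 0.16 in the last. The 90th percentile of the absolute difference was 0.18, 0.61 and 0.53 in that order, and the share at 2-fold was 0.771%, 3.76% and 2.46%. For the enzyme genes each difference is therefore set beside those of its own section, and the part of the section in any difference was not tested. H2A.B itself was not checked. Among probe sets that name 1 gene, 0 named H2ab1, H2ab2 or H2ab3, and those naming several genes were not searched.

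None of the genes differed by 2-fold. Dnmt1, Uhrf1, Dnmt3a, Dnmt3l and Tdg differed by at most 0.11 (log2) on their brightest probe sets, Uhrf2 was higher on the knockdown array by 0.31, and Dnmt3b and Tet2 were lower by -0.42 and -0.26. The brightness limit was a mean over both arrays of 6.73, the median over all genes, each read from its brightest usable probe set. It was passed by 8 of the 10 genes, Tet3 lay below it and Tet1 had no probe set. Of the 8, 5 were higher and 3 lower on the knockdown array, with a median difference of 0.04 against -0.0016 over all 8282 genes past the limit. Their median absolute difference was 0.10, against 0.07 over all genes. The count at 2-fold was 0 of 8, where 1.96% of all genes past the limit reached 2-fold, so a count of 0 is near the background. A difference of 1.5-fold was reached by 0 of 8 too, against 5.64% of all genes. Counted by probe set and without the limit, 0 of 17 reached 2-fold, against 4.19% of all usable probe sets naming 1 gene.

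**Figure D1:**
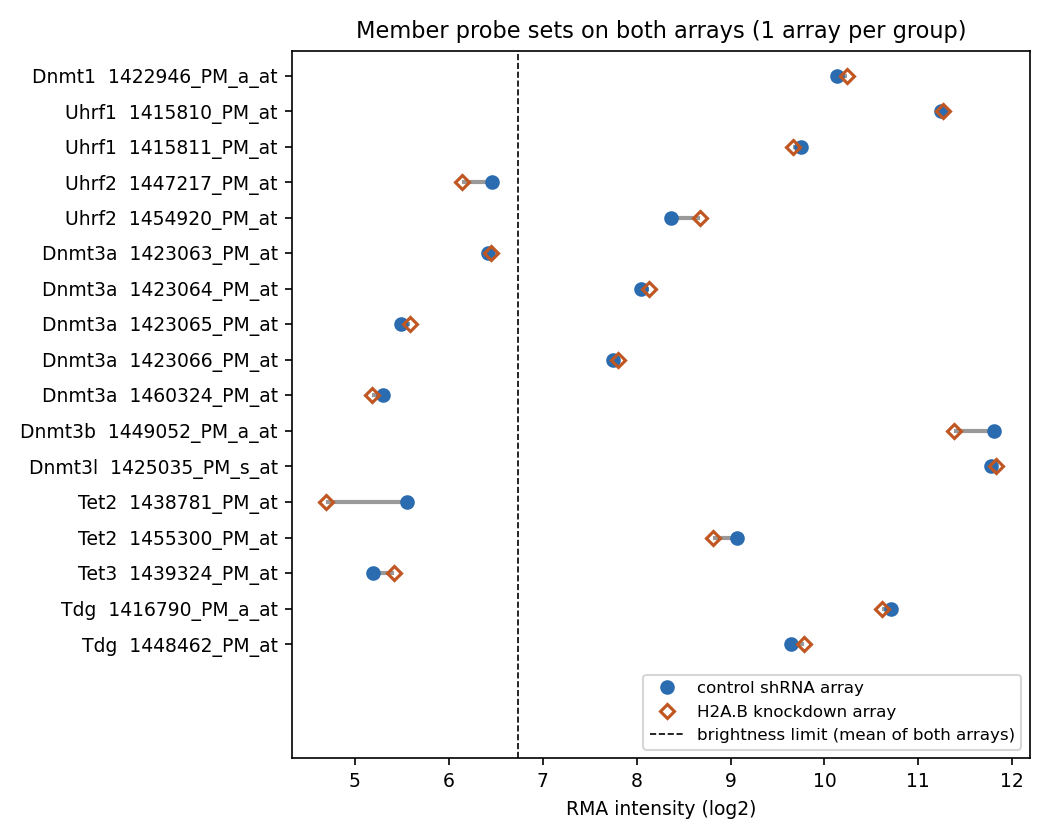
RMA intensity (log2, x axis) of the 17 usable probe sets on the control array (filled circles) and the knockdown array (open diamonds), 1 array per group, with a grey line joining the 2 values of a probe set and a dashed line at the brightness limit of 6.73. The paired symbols nearly coincide for Dnmt1, Uhrf1, Dnmt3a, Dnmt3l and Tdg, and lie farthest apart for the dim Tet2 probe set, at 5.55 and 4.69.

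The maintenance genes differed by at most 0.11 between the arrays, in the first section, where differences were narrowest. Dnmt1, read by probe set 1422946_PM_a_at, had log2 intensities of 10.13 in control cells and 10.24 in knockdown cells, a difference of 0.11. The suffix a marks probes shared by alternative transcripts of 1 gene, so this value does not tell the Dnmt1 isoforms apart. In the first section, 18.3% of the 6484 bright probe sets were as far apart or farther. Uhrf1 had 11.24 in control cells and 11.26 in knockdown cells on probe set 1415810_PM_at (0.02). Its other probe set, 1415811_PM_at, had 9.75 and 9.67 (-0.08). Uhrf1 was thus marginally higher on one and lower on the other, both by less than the 90th percentile of the section.

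Uhrf2, which resembles Uhrf1 in its domains but is not known to replace it in maintenance, gave opposite signs on its 2 probe sets. The brighter, 1454920_PM_at in the last section, had 8.36 in control cells and 8.67 in knockdown cells, a difference of 0.31 or 1.24-fold. The dimmer, 1447217_PM_at in the middle section, had 6.45 and 6.13, a difference of -0.32 or 1.25-fold lower. The mean over both was -0.0044. The knockdown value of the dimmer probe set, to the last digit, recurs 1 time within 20 rows below it in the control column, which makes that probe set less certain. In the last section 25.3% of bright probe sets, and in the middle section 31.7% of those below the limit, were as far apart.

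The de novo methyltransferase gene Dnmt3a had 5 probe sets, which the annotation ties to the same transcript sequence, so they need not be independent readings. The brightest, 1423064_PM_at, had 8.04 in control cells and 8.13 in knockdown cells (0.09), and 1423066_PM_at had 7.75 and 7.80 (0.06). The dimmer 1423063_PM_at had 6.42 and 6.45 (0.04), and 1423065_PM_at had 5.49 and 5.59 (0.09). These 4 probe sets are neighbours in the first section, and each was slightly higher on the knockdown array. In the order given, 25.8% and 41% of the bright and 57.3% and 25.2% of the dim probe sets of that section were as far apart. The fifth, 1460324_PM_at in the last section, was dim and went the other way, with 5.30 and 5.18 (-0.12). The SD of the difference over the 5 was 0.09, and 46.3% of the 4767 genes with probe sets in more than 1 section had an SD as large.

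Dnmt3b, the main de novo enzyme of the early embryo, had the widest difference of the 8 enzyme genes past the limit. Probe set 1449052_PM_a_at had 11.81 in control cells and 11.38 in knockdown cells, a difference of -0.42 or 1.34-fold lower. It lies in the middle section, where 16.9% of the 2605 bright probe sets were as far apart or farther. Dnmt1, with a narrower difference, had a like share in its own section, 18.3%. The other Dnmt3b probe set, 1418351_PM_a_at, could have given a second reading. Its control value was 5.48, dim, but its knockdown entry of 68.1 belongs to the step series. The lower Dnmt3b value therefore rests on 1 probe set of 1 array per group.

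Dnmt3l, the cofactor of the de novo enzymes, had 11.77 in control cells and 11.83 in knockdown cells on probe set 1425035_PM_s_at (0.06), in the first section. The suffix s marks probes that can match transcripts of more than 1 gene, although the annotation names Dnmt3l alone. In that section 40.3% of bright probe sets were as far apart. Dnmt3l and Dnmt3b are both abundant in ES cells, and here Dnmt3l was nearly equal on both arrays while Dnmt3b was lower. Dnmt3l was read from the first section and Dnmt3b from the middle, so gene and section cannot be told apart here. Whether their differences differ from each other could not be tested.

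Of the Tet dioxygenase genes, Tet2 was lower on the knockdown array on both of its probe sets. The brighter, 1455300_PM_at in the last section, had 9.07 in control cells and 8.81 in knockdown cells, a difference of -0.26 or 1.19-fold lower. The dimmer, 1438781_PM_at in the middle section, had 5.55 and 4.69, a difference of -0.86 or 1.81-fold lower, the widest among the 17 probe sets. Tet2 was the only gene with more than 1 usable probe set on which all of them had the same sign, among 5 such genes. Over all genes with at least 2 usable probe sets, 51.9% had both signs, so agreement in sign is common. The sizes were unlike, and at least as wide a difference was seen in 32.3% of bright probe sets of the last section and in 11.7% of dim ones of the middle section. Tet3 had 5.20 in control cells and 5.42 in knockdown cells on its 1 probe set, 1439324_PM_at (0.22). That probe set lay below the brightness limit on both arrays, in the middle section, where 40.8% of dim probe sets were as far apart.

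Tdg, the glycosylase that removes oxidised methylcytosine, also had opposite signs on its 2 probe sets, both of them bright. Probe set 1416790_PM_a_at, in the first section, had 10.70 in control cells and 10.61 in knockdown cells (-0.09). Probe set 1448462_PM_at, in the middle section, had 9.65 and 9.78 (0.13), and its control value recurs 1 time within 20 rows below it in the same column. As wide a difference was seen in 24.8% and 54.2% of the bright probe sets of these sections. A further probe set that names Tdg together with a pseudogene was not used.

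The sizes of these differences followed the sections of the table. The 9 usable probe sets of the first section had absolute differences from 0.02 to 0.11 (median 0.08). The 5 of the middle section had 0.13 to 0.86 (median 0.32), and the 3 of the last section 0.12 to 0.31 (median 0.26). These medians include dim probe sets. For the 7, 2 and 2 past the brightness limit they were 0.08, 0.28 and 0.28. Those of all bright probe sets of these sections were narrower, at 0.05, 0.15 and 0.16. What makes up that excess was not tested. Dnmt1, Uhrf1, Dnmt3l and the first 4 Dnmt3a probe sets were read from the first section, while every difference wider than 0.2 came from the middle or last. Gene and section therefore cannot be told apart for Dnmt3b, Uhrf2, Tet2 and Tet3, which have no usable probe set in the first section.

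**Figure D2:**
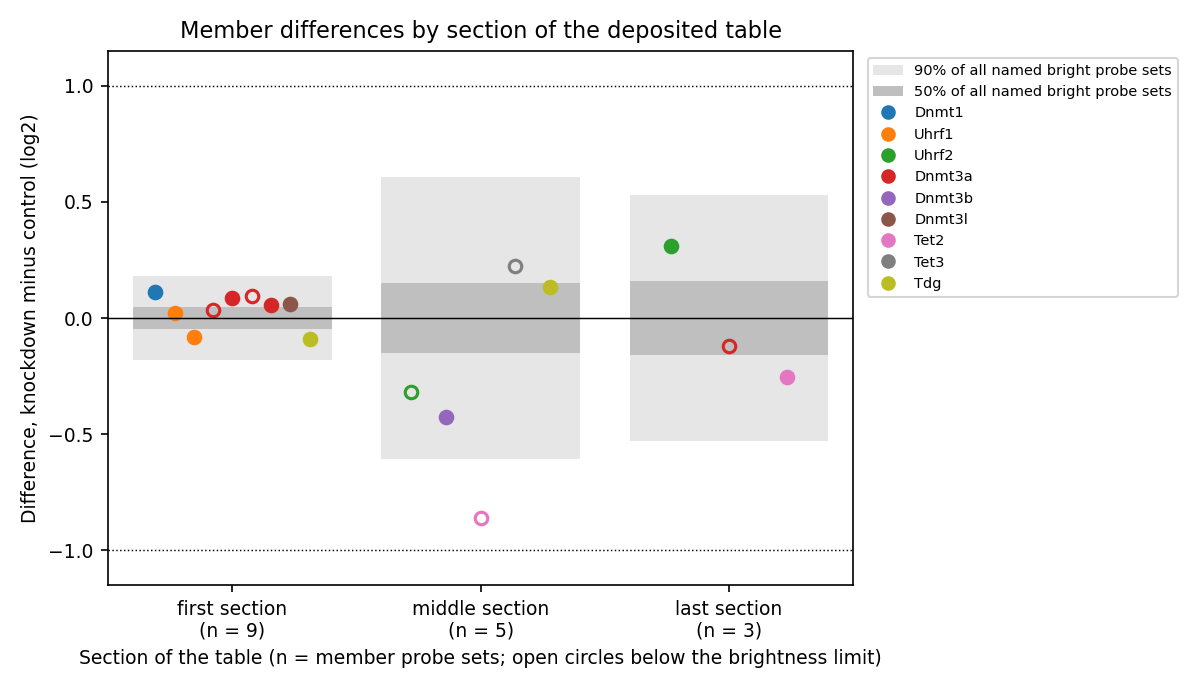
Difference between the arrays (knockdown minus control, log2, y axis) for each usable probe set by section of the table, with filled circles past the brightness limit and open circles below it. Dark and light grey bands hold 50% and 90% of the absolute differences of all bright probe sets naming 1 gene in that section, dotted lines mark 2-fold, and all 17 points lie inside the dotted lines with those of the first section at most 0.11 from 0.

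These arrays offer no replicate error, and the spread between probe sets of 1 gene does not replace it. Such probe sets can read different transcripts, and what makes up their spread was not tested. The SD of the difference had a median of 0.06 over the 6826 genes with at least 2 usable probe sets. It was 0.08 for Uhrf1, whose probe sets both lie in the first section, where genes read only there had a median of 0.04. Among genes with probe sets in more than 1 section the median was 0.08, and the SD was 0.16 for Tdg, 0.43 for Tet2 and 0.45 for Uhrf2. An SD as large was found for 33.4%, 12.2% and 11.4% of such genes. For each of the 5 genes with several usable probe sets, Dnmt3a included, this SD was at least as large as the difference on the brightest probe set. The brightest probe set is itself part of that SD, so the comparison cannot tell a difference from noise. For Tet2 the SD is large although both probe sets were lower, at -0.26 and -0.86. Both signs occurred among the probe sets of 4 of the 5 genes, Tet2 being the exception, against 51.9% of all such genes.

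**Figure D3:**
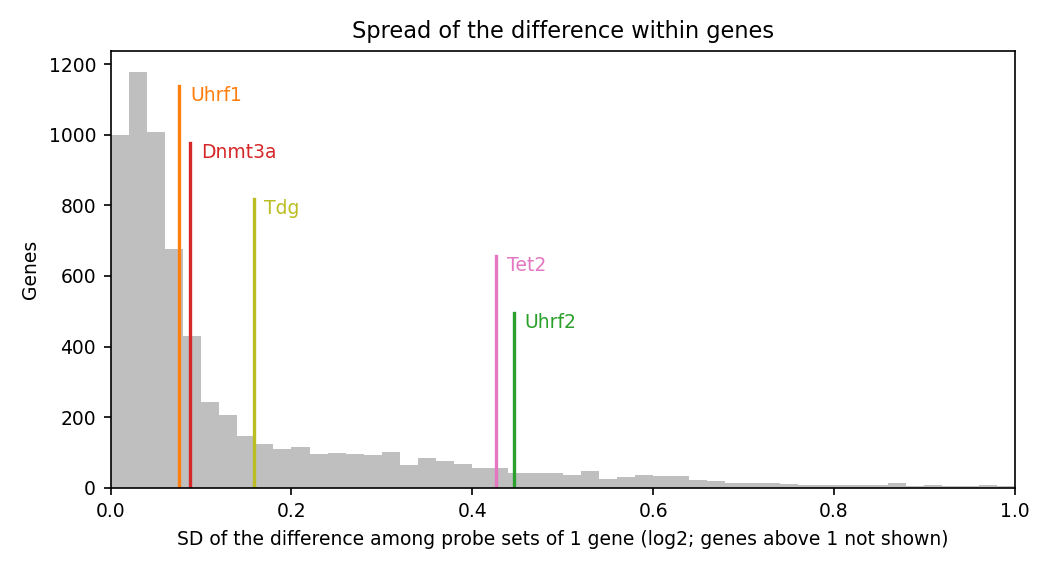
Number of genes (y axis) by the SD of the difference among the usable probe sets of 1 gene (x axis, log2), for genes with at least 2, with coloured lines at the 5 genes described here. Uhrf1 (0.08) and Dnmt3a (0.09) lie in the bulk of the distribution, while Tet2 (0.43) and Uhrf2 (0.45) lie in its long right tail.

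Genes that act with these enzymes were given from 4 lists, chosen with earlier results of these data known. Of 14 partners and regulators, 12 were measured, meaning read by a usable probe set, and all 12 passed the brightness limit. Of these 6 were higher and 6 lower, with a median difference of 0.02. Ehmt1, which encodes a histone H3 lysine 9 methyltransferase, had 10.71 in control cells and 9.69 in knockdown cells (-1.02) on its single probe set. Among the genes of the 4 lists past the limit (12, 12, 12 and 6), Ehmt1 was the only one past 2-fold. Of all genes past the limit 1.96% were, so that count is near the background. Ehmt1 lies in the last section, where 3.06% of the 1667 bright genes were as far apart or farther. Its partner gene Ehmt2 was at -0.18, in the last section too, and at -0.10 on its other probe set. Trim28, the corepressor that guards imprints, was at 0.30 on its brightest probe set and 0.11 on the other, and Setdb1, the methyltransferase it recruits, at 0.18 and -0.11; 32.3% and 54.2% of bright genes of their section, the last, were as far apart. The remaining 8, among them Pcna, Hells, Usp7 and the ES cell repressor gene Prdm14, differed by at most 0.13 on their brightest probe set.

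For active demethylation and base excision repair, 16 of 19 genes were measured and 12 passed the limit, 7 higher and 5 lower. Their median was 0.02. Gadd45a, a stress-response gene linked to demethylation, had 9.20 and 8.69 (-0.51), in the last section, where 14% of bright genes were as far apart. Ogg1, the glycosylase for oxidised guanine, was at 0.36 and on its dimmer probe set at 0.04, with 25.1% of bright genes of the middle section as far apart. Mbd4, a glycosylase that like Tdg removes thymine from mismatches at CpG, was at 0.18 and 0.10, and the ligase gene Lig1 was at 0.13. The brighter Mbd4 probe set holds a value that recurs below it, and without that probe set Mbd4 was at 0.10. Of bright genes of their sections, 52.9% and 13.3% were as far apart as Mbd4 and Lig1 on their brightest probe sets. For supply of the methyl donor and of the Tet cofactor, 12 of 15 genes were measured and all 12 passed. Of these 7 were higher and 5 lower, with a median of 0.03. Shmt2, of mitochondrial one-carbon metabolism, was at 0.38, but its dimmer probe sets were at -0.17 and 0.29, and 24.1% of bright genes of the last section were as far apart. Ogdh, which consumes the Tet cosubstrate 2-oxoglutarate, was at -0.27 and 0.18, and Mat2b at 0.17. Ahcyl2 was at -0.15, and at -0.005 on its dimmer probe set. Of bright genes of their sections, 37.7%, 54.1% and 61.8% were as far apart, in that order.

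Silencing of a set of germline genes in somatic cells is known to depend on methylation of their promoters. Of 18 such genes 12 were measured and 6 passed the limit, 4 higher and 2 lower, with a median of 0.22. That median was -0.0056 with the median over the probe sets of each gene and 0.02 with no brightness limit. Dazl, which encodes a germ-cell RNA-binding protein, was at 0.99 but at -0.46 on its dimmer probe set, and 3.18% of bright genes of its section, the last, were as far apart. Sycp3 of the synaptonemal complex was at -0.35, Rhox9 at 0.33 and the piRNA-pathway gene Piwil2 at 0.26, with 26.7%, 29.5% and 35.1% of bright genes of their sections as far apart. Methylation itself was not measured. Over the 4 lists, the median absolute difference was 0.04 for the 20 bright genes of the first section, 0.18 for the 6 of the middle and 0.23 for the 16 of the last. Over all bright genes of these sections it was 0.04, 0.19 and 0.19.

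**Figure D4:**
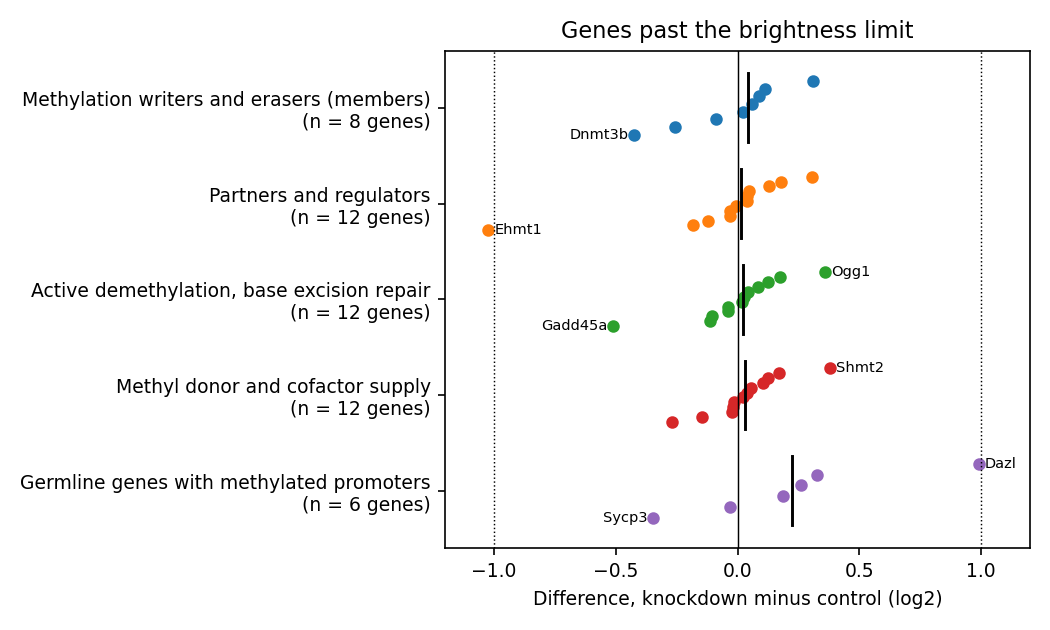
Difference between the arrays (knockdown minus control, log2, x axis) for each gene past the brightness limit in the group of methylation enzymes and in the 4 lists, 1 point per gene on its brightest probe set, with a black bar at each median and dotted lines at 2-fold. Medians run from 0.02 to 0.22, where the 0.22 of the germline list became -0.0056 with the median over probe sets, and Ehmt1 (-1.02) is the only point outside the dotted lines.

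Markers of the labelled cell type were bright on both arrays. All 11 measured ES cell markers passed the limit and differed by less than 0.5, with Esrrb at 0.33 (middle section) and Klf4 at 0.16 (first section) the widest. Of 12 fibroblast or feeder markers 5 passed, 4 of them higher, with Vim at 0.34 (last section) and Col1a1 at 0.25 (first section), while Col1a2, Pdgfra, Lum and others lay below it. At least as wide a difference as those of Vim and Col1a1 was seen in 28.1% and 5.18% of bright genes of their sections. The summed linear intensity of all 12 markers was 2495 in control cells and 2951 in knockdown cells. Without Vim it was 994 and 1057, so most of the change in the sum is that of Vim, a gene not limited to fibroblasts. The part of these markers in the results was not tested. Of 6 neural markers 2 passed, Pax6 (first section) and Tubb3 (0.03). Pax6 was at -0.78 on its brightest probe set and between -0.03 and 0.03 on its others. As wide a difference as on its brightest was seen in 1.04% of bright genes of the first section. Of 8 measured mesendoderm markers only Eomes passed (-0.11), and T was not measured. In these bulk cultures fewer cells of a type and less RNA per cell cannot be told apart.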

How the data were processed

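RNA from 1 control and 1 knockdown culture (2 µg each) was hybridised to Affymetrix arrays. The authors deposited 1 value per probe set and array, taken here as log2 intensities and produced by RMA, as the submitters' processing notes state without a version. The scale is unstated, and the control values run from 0.801 to 14.5. RMA corrects background, normalises quantiles between arrays and summarises probes, so a shift shared by all genes would be removed.

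From these, log2 differences (knockdown minus control) were computed with pandas 2.3.3 and no added centring. Values of the step series, values above 20 and repeated control values were left out. Each gene took its usable probe set with the highest mean. Of 45118 probe sets, 28898 named 1 gene, 551 several and 15669 none. The 2-fold rule was a fixed rule of size, since 1 array per group allows no test. The steps were run on simulated data with the same noise in every section and with planted changes wider than those of the enzyme genes. That run does not show how differences of their size are handled.

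All 10 genes were named on every probe set, with up to 4 genes per pathway list and 2 per marker list by widest difference. The genes and lists were chosen with earlier results of these data known. Alternatives were another probe-set summary, suffix filter, brightness limit, fold rule, centring and handling of repeats. The number of arrays limits the precision.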

Additional observations from a re-analysis of the deposited data

How the results depend on the processing

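The count of methylation enzymes at 2-fold was 0 under all 10 alternatives. The count over all genes was 162, and became 669 with no brightness limit, 20 with the limit at the 75th percentile and 467 with a 1.5-fold rule; under the other 7 alternatives it stayed between 162 and 198. Of 60 recomputed differences of the enzymes, 56 moved by less than 0.065, the median SD among probe sets of a gene. The 4 that moved more came from the choice of probe set: with the median over probe sets Tet2 was -0.56, Uhrf2 -0.0044 and Tdg 0.02, and without suffixed probe sets Tdg was 0.13. The sign of Tdg, Uhrf1 and Uhrf2 thus depends on the probe set used. Suffixed probe sets are the only usable ones of Dnmt1, Dnmt3b and Dnmt3l, so these had no value in that setting. Many of the 60 differences could hardly move, so the 56 say little about stability. The handling of repeats changed none of them, and Dnmt1, Dnmt3b, Dnmt3l and Tet3 have 1 usable probe set each. Of 70 recomputed list medians 10 moved by more than 0.065 and 5 had the other sign. The germline median went from 0.22 to -0.0056 with the median over probe sets, and to 0.02, of the same sign, with no limit. The neural marker median went from -0.37, over 2 genes, to 0.03 with either choice of probe set. It became -0.07 with no limit and -0.78 with the limit at the 75th percentile. The fibroblast or feeder median went from 0.07 to 0.25 and 0.16 with the choice of probe set, and to 0.34 with the limit at the 75th percentile. The mesendoderm median went from -0.11 to -0.0064 with no limit. That of the partners and regulators turned from 0.02 to -0.02 and -0.03 with the choice of probe set. Leaving out a replicate was not possible, and no paired analysis was possible because each group has 1 array. Differences at low intensity are the least certain, since signal over background was not analysed.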

Other observations

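Some genes of the germline and repair lists lay below the brightness limit, and the following were picked after their values were seen. Tex101, a germ-cell surface protein gene, had log2 intensities of 5.42 in control cells and 3.45 in knockdown cells (-1.96) on its single probe set, in the middle section. Stk31 was at 0.45 and -0.87 on its 2 probe sets. The repair polymerase gene Polb was at 0.59 and 0.27, in the first section. All of these are dim readings without a replicate.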
